A study of Mus musculus with 8 samples.

Results

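The proteins of the mitochondrial ribosome are described here in mouse skeletal muscle that received a plasmid for p21. Members were all probes whose gene symbol on the array platform begins with Mrpl or Mrps followed by a digit, which gave 76 of 16593 genes, read by 110 of 25697 probes. The large subunit, by the letter l of the symbol, had 47 genes and 68 probes, and the small subunit had 29 genes and 42 probes. RefSeq lists 78 mouse protein-coding genes with such symbols. The remaining genes, Mrpl41 and Mrpl44, had no probe under that name and are not analysed here.

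Mitochondria keep their own ribosome, which makes only the few membrane proteins of the respiratory chain that mitochondrial DNA encodes. Its rRNAs come from mitochondrial DNA, while every one of its proteins is encoded in the nucleus, made in the cytosol and imported. The small subunit reads the mRNA, the large subunit forms the peptide bonds, and many of the proteins have no counterpart in bacteria. In skeletal muscle the products serve the oxidative metabolism of the fibres.

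Gene expression was measured on 1-colour Illumina bead arrays in tibialis anterior, a hindlimb muscle, of male C57BL/6 mice aged 8 weeks. There were 4 muscles transfected with a p21 plasmid and 4 with a control plasmid, all collected 7 days later. Both legs contributed muscles, and the labels leave unsaid which samples share a mouse. The p-values therefore cover only the variation among these 8 samples, some of which may be technical. The share of fibres that took up a plasmid is not given in the sources used here, and the RNA came from whole muscle.

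Values are log2 intensities, changes are p21 minus control on that scale ± SE, and a probe was called changed at a limma p-value under 0.05 after Benjamini-Hochberg adjustment over all 25697 probes. Where a gene had several probes, it is represented by the brightest. Cdkn1a, the gene of p21, read 9.83, 9.92, 10.27 and 10.02 in control replicates 1 to 4 and 11.31, 11.72, 11.25 and 11.50 in p21 replicates 1 to 4, a change of 1.43 ± 0.12 (adjusted p = 0.00042). The table had been quantile normalized, and its values ran from 8.13 to 15.27 with a median of 8.39, so that changes of probes near the low end are compressed. All 10 genes of a skeletal muscle list (among them Acta1, Ckm and Des) were brighter than the median probe. p21 replicate 2 was the lowest of the 8 arrays in 63 of 110 mitoribosomal probes, and the like share over all probes is not given here. Its median difference from the control mean was also the lowest for the skeletal muscle list (-0.17) and nuclear respiratory chain genes (-0.33). For cytosolic ribosomal proteins it was the highest (0.13), and for endothelial and macrophage genes it was not the extreme. The count of called members and the medians of the subunits and compared families are also given without p21 replicate 2.

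Most mitoribosomal genes of both subunits read slightly lower in p21 than in control muscle. The change was below 0 in 41 of 47 large subunit genes and 27 of 29 small subunit genes. The median change was -0.17 in the large subunit, 10.9% lower in intensity, and -0.19 in the small subunit, 12.4% lower. Over all 16593 genes the median was -0.004, with 53.2% of genes below 0. Among genes brighter than the median probe, to which most mitoribosomal genes belong, it was -0.01, with 53.1% below 0. The quartiles of the 76 changes were -0.25 and -0.07, and the extremes -0.47 for Mrps28 and 0.12 for Mrpl17. In bulk muscle, fewer cells of a type and less RNA per cell cannot be told apart.

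Few single members passed the test across all probes. Of 110 member probes 10 fell, for 9 genes, and 0 rose, which is 9.09% lower against a background of 4.35% lower and 3.68% higher over the whole table. The large subunit had 5 of 68 probes lower (7.35%) and the small subunit 5 of 42 (11.9%). Among probes brighter than the median probe, the members' share was 10.4%, or 10 of 96, against 8.57% of all such probes, so the share of calls was near that of other bright probes. At an unadjusted p under 0.05, 39 member probes (35.5%) passed, all with a change below 0, against 12.3% of all probes that passed with a change below 0. Among probes brighter than the median these shares were 39.6% and 21.7%. The whole of the p21 group lay below the whole of the control group in 35 member probes (31.8%), against 9.34% of all probes. The opposite held in 1 member probe, of Mrpl49, against 7.41% of all probes. Among probes brighter than the median, groups were apart and lower in 34 of 96 member probes (35.4%), against 17.0% of all such probes. The difference between subunits was not tested.

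**Figure D1:**
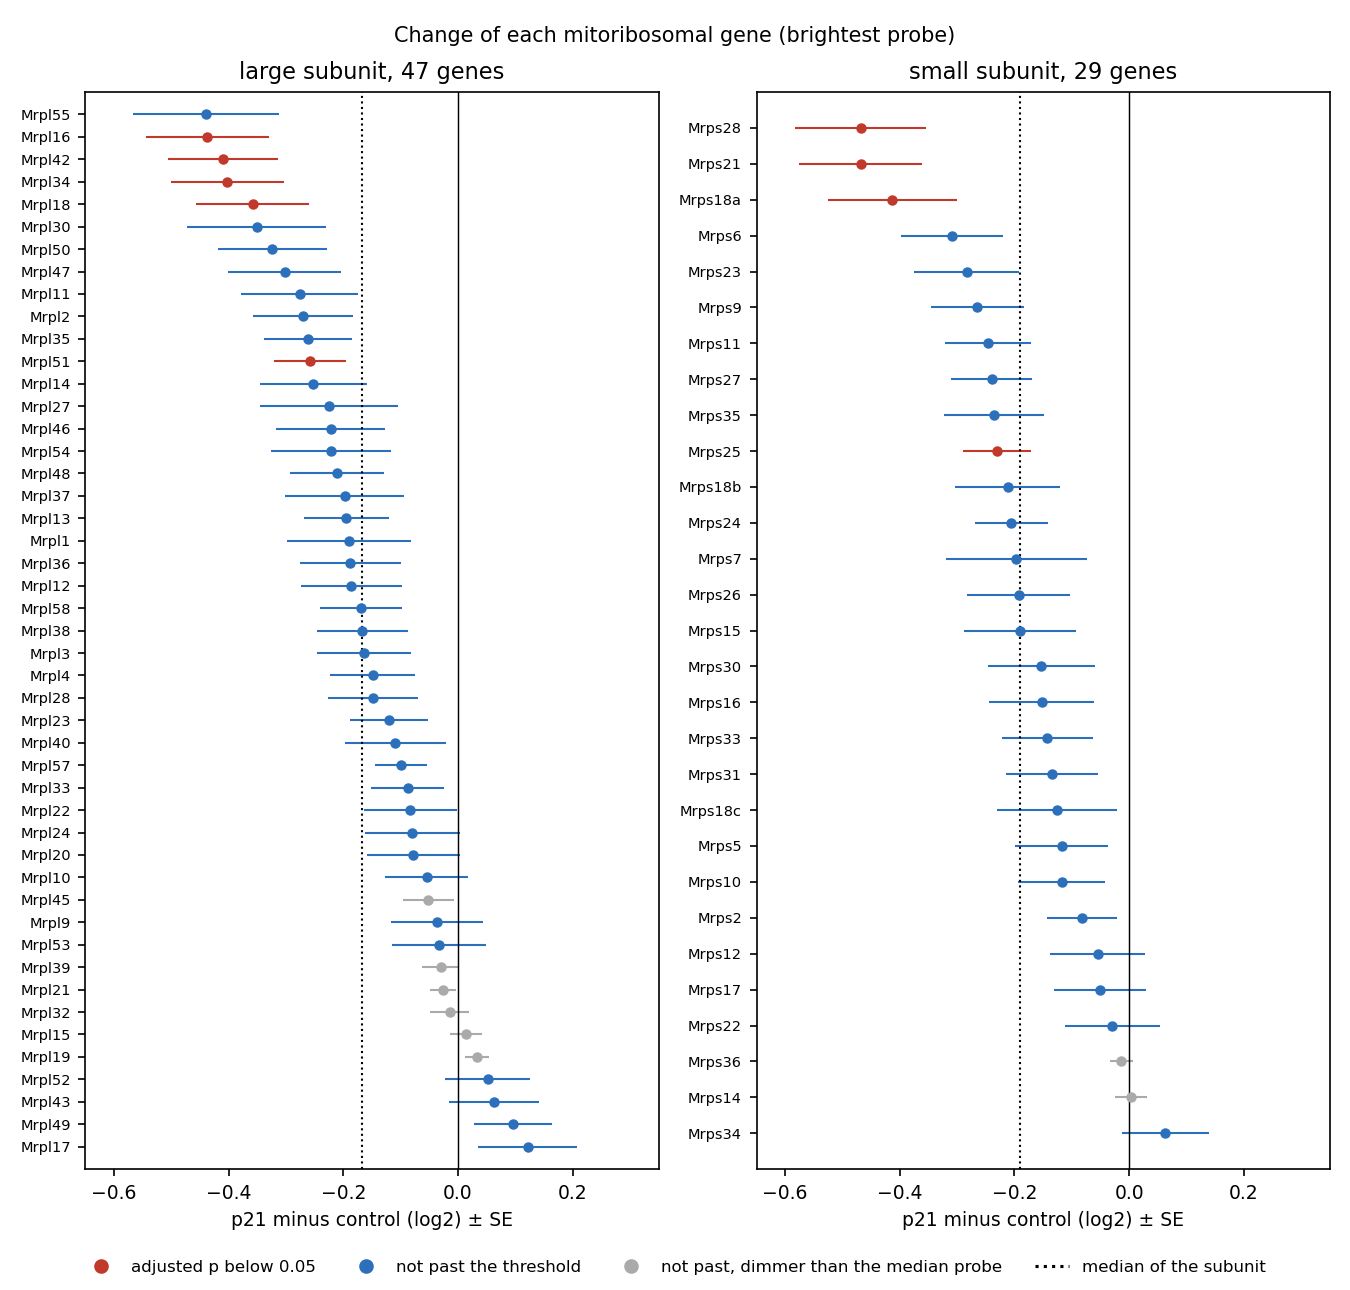
Change of each mitoribosomal gene by its brightest probe, p21 minus control in log2 units with its SE as a bar, for the large subunit (left) and the small subunit (right). Most points lie left of 0, the dotted medians are at -0.17 and -0.19, and the 9 red points are the genes past adjusted p 0.05.

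p21 replicate 2 was the lowest array in 37 of 68 large subunit probes and 26 of 42 small subunit probes. Taking each gene's difference from its control mean, the median over the 76 genes was 0.05, 0.01, -0.04 and -0.03 in control replicates 1 to 4. It was -0.07, -0.27, -0.14 and -0.17 in p21 replicates 1 to 4. All 4 p21 arrays thus lay below all 4 control arrays in this median, with p21 replicate 1 the nearest to the controls and p21 replicate 2 the farthest. In p21 replicates 1 to 4, 57, 67, 69 and 67 of the 76 genes were below their control mean. The same count was 20, 32, 58 and 51 in control replicates 1 to 4. By this count p21 replicate 1 did not stand apart from control replicate 3. Without p21 replicate 2 the median change was -0.12 in the large subunit and -0.14 in the small subunit, and 7 member probes were lower, against 3.53% of all probes.

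**Figure D2:**
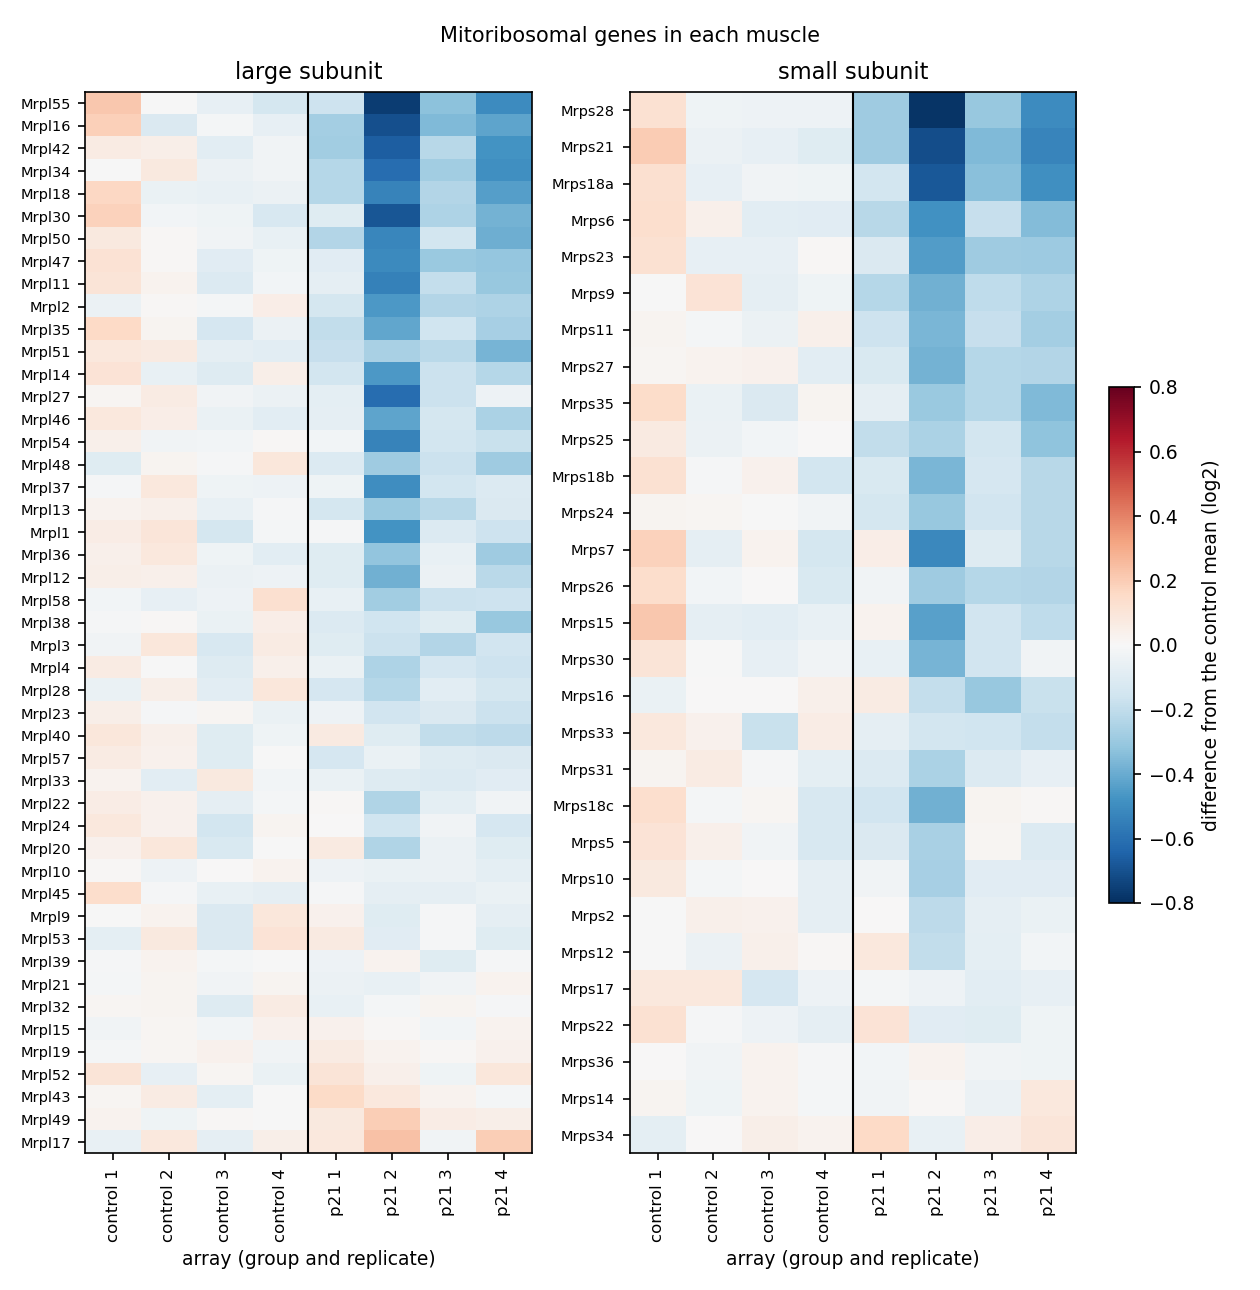
Difference of each array from the control mean of the gene, in log2 units, for the brightest probe of 47 large subunit genes (left) and 29 small subunit genes (right). Columns are the 4 control and 4 p21 arrays. The column of p21 replicate 2 is the darkest blue, with a median of -0.27, and that of p21 replicate 1 the palest of the p21 arrays, with -0.07.

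Leaving out single arrays moved the calls strongly. Without control replicate 1, control replicate 2 or p21 replicate 4, 0 of the 110 member probes were called, and 0.49%, 0.568% and 0.113% of all probes were lower. Without control replicate 3 there was 1 call (0.909% against 1.83% of all probes), and without control replicate 4 there were 2 (1.82% against 2.28%). Without p21 replicate 1 there were 15 (13.6% against 4.56%), and without p21 replicate 3 there were 12 (10.9% against 3.9%). The number of calls in the whole table also fell without the first 3 arrays named, from 2064 to 379, 391 and 159. All 10 called probes kept a change below 0 in each of these fits. The replicate numbers may mark pairs, and with the number as a block 18 member probes of 17 genes were lower, 10 in the large and 8 in the small subunit, against 6.33% of all probes. These 18 include the 10 called without the block.

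The 5 large subunit genes that fell are proteins of different kinds, with bacterial counterparts in Mrpl16, Mrpl18 and Mrpl34 and without in Mrpl42 and Mrpl51. Mrpl42 read 13.58, 13.57, 13.44 and 13.49 in controls and 13.24, 12.86, 13.30 and 13.04 in p21 muscles. The controls were close together, and every p21 muscle lay below them, replicate 2 the lowest. The change was -0.41 ± 0.10, or 24.7% lower (adjusted p = 0.028).

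Mrpl34, the counterpart of bacterial L34, read 11.48, 11.56, 11.43 and 11.46 in controls and 11.25, 10.87, 11.20 and 10.99 in p21 muscles. The groups did not overlap, and p21 replicates 2 and 4 were the lowest. It changed by -0.40 ± 0.10, or 24.3% lower (adjusted p = 0.032). Mrpl16, the counterpart of bacterial L16, read 11.00, 10.69, 10.79 and 10.74 in controls and 10.53, 10.10, 10.45 and 10.38 in p21 muscles. Control replicate 1 was the highest and p21 replicate 2 the lowest, again without overlap. It changed by -0.44 ± 0.11, or 26.2% lower (adjusted p = 0.033).

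Mrpl18 sits in the central protuberance, the crown of the large subunit, and its bacterial counterpart binds 5S rRNA. It read 11.28, 11.06, 11.05 and 11.07 in controls and 10.89, 10.58, 10.88 and 10.68 in p21 muscles. Control replicate 1 stood above the other controls, which lay nearly together, and the groups did not overlap. The change was -0.36 ± 0.10, or 22.0% lower (adjusted p = 0.046). Mrpl51 read 9.21, 9.20, 9.05 and 9.04 in controls and 8.94, 8.86, 8.90 and 8.75 in p21 muscles. Here p21 replicate 4, not 2, was the lowest, and control replicates 3 and 4 were the nearest to the p21 group. The change was -0.26 ± 0.06, or 16.4% lower (adjusted p = 0.032).

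The small subunit symbols gave 4 genes that fell. Mrps21, the counterpart of bacterial S21, read 13.06, 12.81, 12.79 and 12.76 in controls and 12.57, 12.14, 12.50 and 12.33 in p21 muscles. It was higher in control replicate 1 than in the other controls and lowest in p21 replicate 2, with no overlap. The change was -0.47 ± 0.11, or 27.7% lower (adjusted p = 0.026). Mrps28 read 12.25, 12.09, 12.08 and 12.08 in controls and 11.84, 11.34, 11.82 and 11.62 in p21 muscles. The order of the arrays was much like that of Mrps21, and the change was -0.47 ± 0.11, also 27.7% lower (adjusted p = 0.032).

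Mrps25, a protein of the mitochondrial ribosome without a bacterial counterpart, had 3 probes, of which 2 passed. The brightest read 9.43, 9.31, 9.34 and 9.36 in controls and 9.16, 9.11, 9.22 and 9.04 in p21 muscles. All p21 muscles lay below all controls, and the change was -0.23 ± 0.06, or 14.7% lower (adjusted p = 0.038). The other called probe read 9.22, 9.28, 9.26 and 9.33 in controls and 9.08, 8.90, 9.09 and 8.91 in p21 muscles. This probe also separated the groups, with p21 replicates 2 and 4 lowest, and changed by -0.28 ± 0.06 (adjusted p = 0.026). The third probe changed by -0.05 ± 0.06 (adjusted p = 0.73) with overlapping groups.

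Mrps18a carries a small subunit name, but its protein sits in the large subunit of the mammalian mitoribosome. It read 12.02, 11.83, 11.87 and 11.86 in controls and 11.75, 11.22, 11.57 and 11.41 in p21 muscles. The gap between the groups was narrow at p21 replicate 1 and wide at p21 replicate 2. The change was -0.41 ± 0.11, or 24.9% lower (adjusted p = 0.046). An exact permutation test over the arrays, two-sided and unadjusted, returned p = 0.0286 for each of the 10 called probes. No lower value is possible with the 70 regroupings of 4 against 4.

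**Figure D3:**
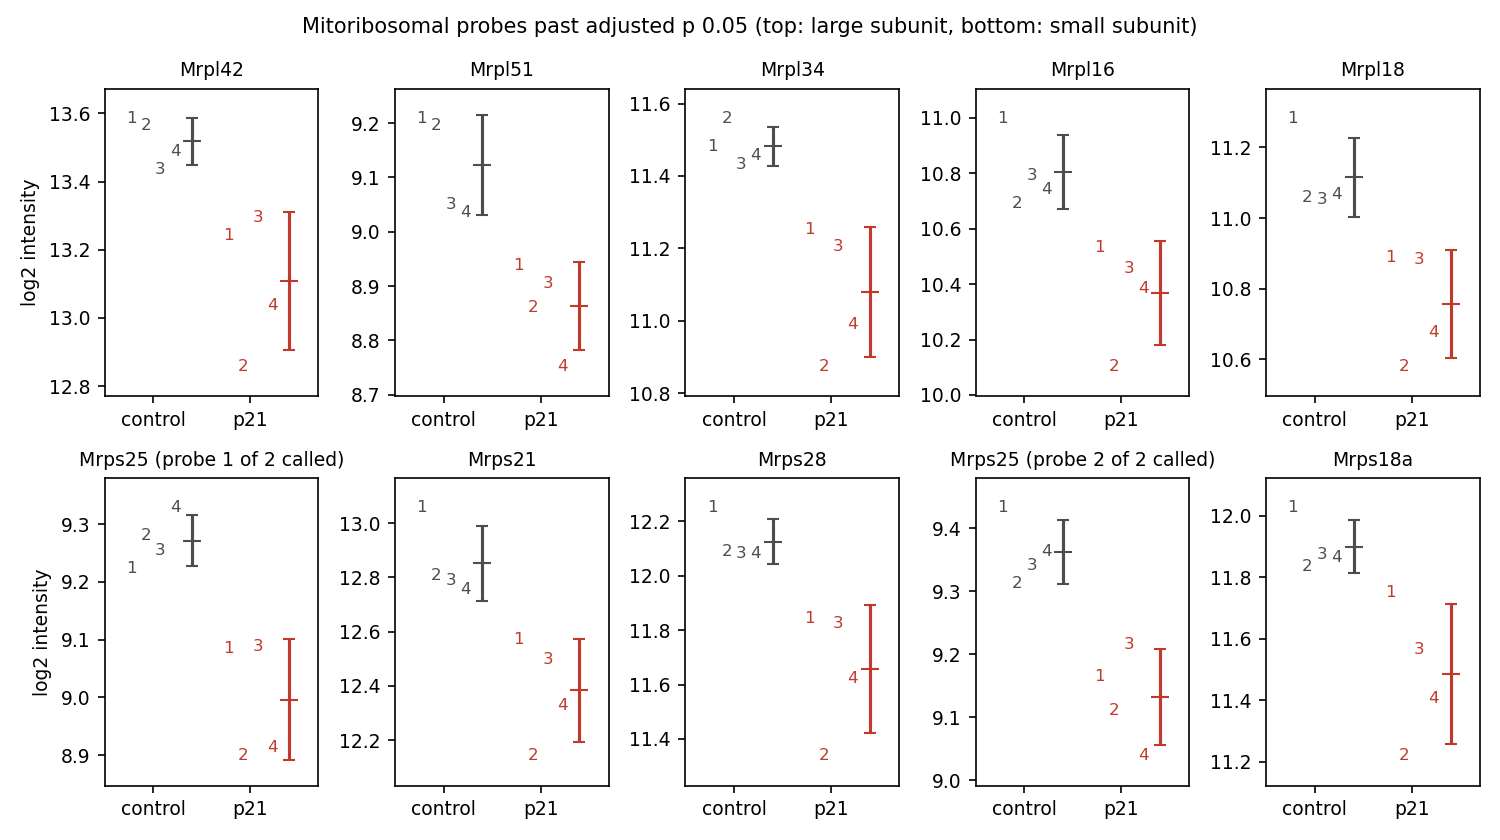
Log2 intensity of the 10 mitoribosomal probes past adjusted p 0.05 in every array, with large subunit genes on top and small subunit genes below. Digits are the replicate numbers of control (grey) and p21 (red) muscles, bars are the mean ± SD (n = 4), and each panel has its own axis. The groups do not overlap in any panel, and p21 replicate 2 or 4 is the lowest.

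Several members just missed the threshold and are named after their values were seen. Mrpl55, a large subunit protein without a bacterial counterpart, read 11.42, 11.20, 11.14 and 11.06 in controls and 11.04, 10.45, 10.87 and 10.70 in p21 muscles. Its change of -0.44 ± 0.13 was as large as that of Mrpl16, with a wider spread within groups and an adjusted p of 0.057, and 0.016 with the replicate number as a block. Mrps6 had -0.31 ± 0.09 (adjusted p = 0.054), Mrpl50 had -0.32 ± 0.10 (0.060) and Mrpl35 had -0.26 ± 0.08 (0.057). With the block, Mrpl30, Mrpl35, Mrpl47, Mrpl50, Mrpl55, Mrps6, Mrps7 and Mrps23 were called lower as well, at adjusted p between 0.016 and 0.045.

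The brightest probes of the large subunit were those of Mrpl33 and Mrpl42, given above, and those of the small subunit were of Mrps24 and Mrps33. Apart from Mrpl42, none of the 4 was called. The brightest probe of Mrpl33 read 13.50, 13.39, 13.55 and 13.45 in controls and 13.42, 13.37, 13.37 and 13.39 in p21 muscles. These groups overlapped, and the change was -0.09 ± 0.06 (adjusted p = 0.47). Mrps24, the counterpart of bacterial S3, read 13.45, 13.44, 13.42 and 13.39 in controls and 13.28, 13.12, 13.27 and 13.20 in p21 muscles. Its groups were apart and the change was -0.21 ± 0.06, which missed the threshold (adjusted p = 0.073). Mrps33 changed by -0.14 ± 0.08 (adjusted p = 0.33), with control replicate 3 inside the p21 range.

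No member probe rose. The 8 genes with a change above 0 reached at most 0.12, the value of Mrpl17, a protein near the exit of the peptide tunnel. Mrpl17 read 12.01, 12.15, 11.99 and 12.11 in controls and 12.15, 12.30, 12.04 and 12.27 in p21 muscles (adjusted p = 0.46). Here p21 replicate 2, the lowest array for most members, was the highest, and the groups overlapped. Mrpl49 read 10.04, 9.97, 10.01 and 10.01 in controls and 10.08, 10.21, 10.07 and 10.05 in p21 muscles, apart by a narrow margin, with a change of 0.10 ± 0.07 (adjusted p = 0.47). Its other 3 probes, all dimmer, changed by -0.02 to -0.03.

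Probes of the same gene did not always read alike. Of the 76 genes, 22 had more than 1 probe. Calls differed between probes in Mrpl18, Mrpl51 and Mrps25, and the sign of the change differed in Mrpl13, Mrpl18, Mrpl43, Mrpl47, Mrpl49 and Mrps5. For Mrpl18 the second probe read between 8.23 and 8.31 in all 8 arrays, near the low end of the table, and changed by 0.01. The dimmer probes of Mrpl51 changed by -0.18 and -0.08 (adjusted p = 0.22 and 0.36). Mrpl13 changed by -0.19 ± 0.07 in its brightest probe (adjusted p = 0.13), while its other probes read about 8.26 and 8.53 and changed by 0.001 and -0.002. Mrpl47 had -0.30 ± 0.10 (adjusted p = 0.085) in its bright probe and 0.01 in its dim one, Mrpl43 had 0.06 and -0.02, and Mrps5 had -0.12 and 0.01. In all, 14 member probes were dimmer than the median probe, and their changes ran from -0.06 to 0.03.

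Grouped by role, median changes ran from -0.22 to -0.07. For comparison, 11.8% of the 76 member genes and 4.79% of all genes were called lower. Most members are brighter than the median probe, and among such probes 10.4% of members and 8.57% of all were called lower. Large subunit proteins with a bacterial counterpart had 3 of 29 genes lower and a median of -0.16, and those found only in mitochondria had 2 of 17 and -0.17. Among the small subunit symbols the counterparts had 2 of 17 lower and a median of -0.19, and the mitochondria-only proteins 1 of 11 and -0.15. The counterparts include Mrps18a and the mitochondria-only proteins Mrps30, both placed in the large subunit by structure. Mrps28, called and with a change of -0.47, and Mrpl58, not called and with -0.17, were placed in none of these groups. The genes of the stalk that recruits translation factors, Mrpl10, Mrpl11 and Mrpl12, had changes of -0.05, -0.28 and -0.19 with 0 called. The 6 measured genes around the exit tunnel (Mrpl17, Mrpl22, Mrpl23, Mrpl24, Mrpl39 and Mrpl45) had a median of -0.07 with 0 called. The 6 of the central protuberance (Mrpl18, Mrpl27, Mrpl38, Mrpl40, Mrpl46 and Mrpl48) had -0.22 with 1 called, Mrpl18. Differences between these groups were not tested, and 2 of the exit tunnel genes, Mrpl39 and Mrpl45, were dimmer than the median probe.

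In the lists of other genes that mitochondrial translation needs, median changes ran from -0.15 to -0.04. Of all measured genes, 4.79% were lower and 4.24% higher. Of probes brighter than the median probe, to which most of the listed genes belong, 8.57% were lower. Of 14 translation factors measured, 3 fell (21.4%, against 11.8% of mitoribosomal genes) and the median was -0.15. On a background-subtracted scale their median was -0.33, against -0.21 for the mitoribosomal genes. The release factor family genes Mtrf1 and Mtrf1l changed by -0.34 ± 0.07 (adjusted p = 0.023) and -0.23 ± 0.06 (0.044), and Gfm2, which helps to recycle the ribosome, by -0.42 ± 0.11 (0.043). With the replicate block 5 were lower, against 1155 of all 16593 genes. Of 20 assembly and rRNA modification factors 1 fell, the rRNA methyltransferase Mrm1 by -0.28 ± 0.08 (adjusted p = 0.046), and the median was -0.07. Of 17 genes for charging mitochondrial tRNAs 1 fell, the amidotransferase subunit Gatc by -0.32 ± 0.08 (adjusted p = 0.039), and the median was -0.10. The 4 measured mitoribosomal proteins under other names, Chchd1, Dap3, Gadd45gip1 and Ptcd3, had 0 calls and a median of -0.15.

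Among 12 measured genes for the transcription of mitochondrial DNA and its nuclear regulators, 3 fell and 1 rose, with a median of -0.04. Ppargc1a, the coactivator PGC-1alpha, changed by -0.32 ± 0.08 (adjusted p = 0.030). It read 9.30, 9.30, 9.26 and 9.30 in controls and 9.20, 8.79, 8.96 and 8.92 in p21 muscles, with the groups apart and p21 replicate 2 lowest. Esrra, the nuclear receptor ERRalpha, changed by -0.51 ± 0.13 (adjusted p = 0.040), and Tfb2m, an initiation factor of mitochondrial transcription, by -0.41 ± 0.10 (0.030). Mterf1a, a transcription termination factor, rose by 0.19 ± 0.05 (adjusted p = 0.042). With the replicate block 5 were lower and 1 higher, against 1155 and 1180 of all 16593 genes. The genes of the factors NRF1, GABPA and YY1 changed by 0.06, 0.03 and -0.01 and were not called, Yy1 being dimmer than the median probe.

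Set beside the nuclear subunits of the respiratory chain, the mitoribosomal genes had a like median change, fewer calls and a lower level. The 79 respiratory chain genes had a median of -0.19, with 16 lower (20.3%, against 4.79% of all genes) and 1 higher. Their median level was 13.40, against 11.07 for the mitoribosomal genes. Cytosolic ribosomal proteins share the array and the chemistry but build the other ribosome of the cell. Their median was 0.08 over 61 genes, with 0 lower and 10 higher (16.4%, against 4.24% of all genes). Without p21 replicate 2 the median was 0.04 for the cytosolic ribosome, -0.13 for the respiratory chain and -0.12 for the mitoribosomal genes. At an array level, the respiratory chain medians were -0.09, -0.33, -0.11 and -0.17 in p21 replicates 1 to 4, the same order of arrays as for the mitoribosomal medians. The skeletal muscle list had this order too, at -0.04, -0.17, -0.05 and -0.12, so the order is not particular to mitochondrial genes. The endothelial and macrophage lists had other orders. The families were not tested against each other.

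**Figure D4:**
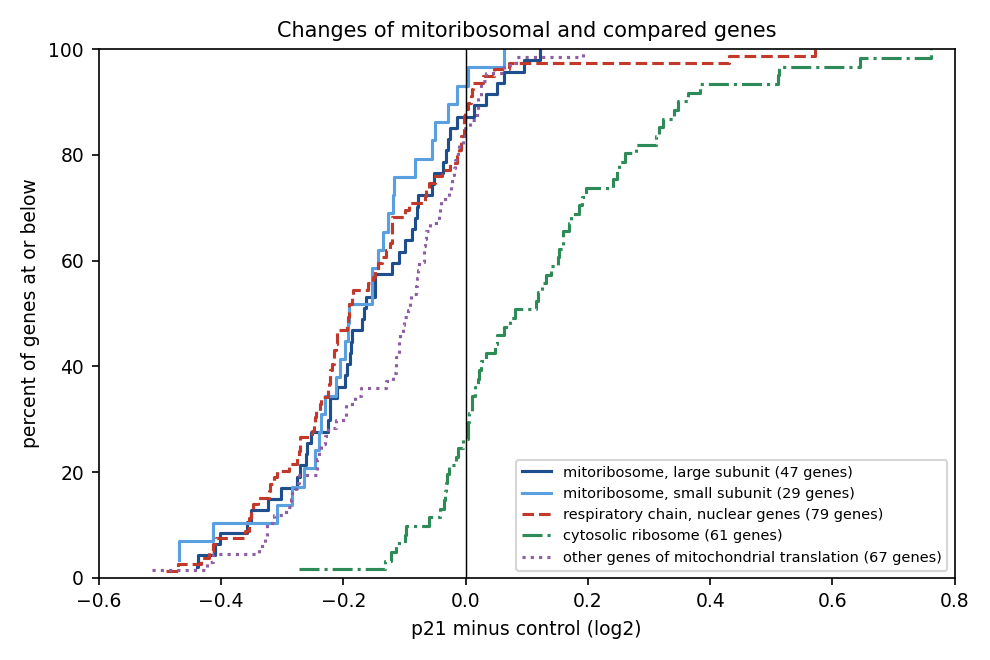
Share of genes (percent) at or below each change, p21 minus control in log2 units, for both mitoribosomal subunits and the compared gene families. The mitoribosomal and respiratory chain curves run together with medians from -0.17 to -0.19, while the cytosolic ribosome curve crosses 50% at 0.08.

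Markers of some other cell types moved with the groups. Over all genes, 4.79% were lower and 4.24% higher, and of probes brighter than the median probe 8.57% were lower. Macrophage genes were higher in 8 of 13 measured, with a median change of 0.84 (Cd68 and Csf1r had no probe under those names), and their summed level on the log2 scale ran from 14.47 to 15.29 in controls and from 15.80 to 16.37 in p21 muscles. Endothelial genes were lower in 3 of 9, with sums of 13.91 to 14.12 and 13.62 to 13.77. Satellite cell genes were higher in 2 of 5, with sums of 11.09 to 11.34 in controls and 11.78 to 11.95 in p21 muscles. Fibroblast genes were higher in 1 of 8 and lymphocyte genes in 0 of 7, and the sums of both lists overlapped between the groups. Of 10 skeletal muscle genes 1, Myh4, fell, the median was -0.12, and the sums were 17.99 to 18.04 in controls and 17.85 to 17.98 in p21 muscles. The part of these shifts in the mitoribosomal changes was not tested.

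Promoter sequences are shown because members moved together and because the motifs of NRF1, GABPA and YY1 are known from genes of mitochondrial proteins. RefSeq promoter windows (build GRCm38.p6, 250 bases before to 50 after the transcription start) were matched for 67 of the 76 genes, in 73 windows. Both strands were searched for the NRF1 core GCATGCGC, the GABPA/ETS core CCGGAAG and the YY1 core AAGATGGC, of which the ends of CCGGAAG and AAGATGGC can overlap by AAG. The 150 bases before the start are printed below 5′ to 3′ on the gene's strand for 4 called members and 2 members near 0. Capitals mark a match to the ETS core or its reverse complement. The windows are chr8:71464776-71464925 (+) for Mrpl34, chr6:125192050-125192199 (+) for Mrpl51, chr17:46110854-46111003 (+) for Mrps18a, chr19:11770265-11770414 (+) for Mrpl16, chr19:45006443-45006592 (-) for Mrpl43 and chr6:83108958-83109107 (+) for Mrpl53.
Mrpl34: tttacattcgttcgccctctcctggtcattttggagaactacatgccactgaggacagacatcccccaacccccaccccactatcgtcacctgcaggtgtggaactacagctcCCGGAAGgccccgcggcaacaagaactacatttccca
Mrpl51: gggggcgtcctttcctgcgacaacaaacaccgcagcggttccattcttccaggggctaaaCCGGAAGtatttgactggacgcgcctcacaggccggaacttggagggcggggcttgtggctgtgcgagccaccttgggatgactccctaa
Mrps18a: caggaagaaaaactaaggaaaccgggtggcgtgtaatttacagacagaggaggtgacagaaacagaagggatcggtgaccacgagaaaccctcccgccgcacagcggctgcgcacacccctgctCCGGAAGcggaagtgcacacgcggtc
Mrpl16: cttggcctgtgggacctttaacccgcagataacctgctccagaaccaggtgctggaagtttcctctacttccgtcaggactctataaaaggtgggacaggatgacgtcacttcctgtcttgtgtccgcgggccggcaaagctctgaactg
Mrpl43: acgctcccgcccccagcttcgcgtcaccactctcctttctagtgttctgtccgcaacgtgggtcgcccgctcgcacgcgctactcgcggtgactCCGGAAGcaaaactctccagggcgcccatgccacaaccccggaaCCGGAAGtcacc
Mrpl53: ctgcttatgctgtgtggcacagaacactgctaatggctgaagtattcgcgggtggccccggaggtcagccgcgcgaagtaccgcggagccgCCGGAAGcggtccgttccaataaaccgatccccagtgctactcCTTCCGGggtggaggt

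The called genes Mrpl34, Mrpl51 and Mrps18a each have 1 ETS match, which begins 37, 90 and 26 bases before the start. Mrps18a also has a YY1 match after the start, outside the printed bases, and the called gene Mrpl16 has no match to any of the 3 motifs. Mrpl43 and Mrpl53 have 2 matches each before the start and changed by 0.06 and -0.03. Over all member windows, the ETS core was found in 26 of 73 (35.6%), against 11.6% of 21263 protein-coding windows. The YY1 core was in 12 (16.4%) against 3.05%, and the NRF1 core in 8 (11.0%) against 3.52%. At least 1 of the 3 was in 52.1% of member windows, 42.0% of respiratory chain windows, 49.2% of cytosolic ribosomal protein windows and 16.7% of protein-coding windows. In cytosolic ribosomal protein windows the ETS core was in 34.9%, the YY1 core in 11.1% and the NRF1 core in 3.17%.

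Median changes with and without a match lay within 0.05 of each other on the log2 scale for the ETS and YY1 cores. The 26 genes with an ETS match had a median change of -0.16 with 5 called, and the 41 without had -0.19 with 3 called. The ETS core was in 5 of the 8 windows of called members (62.5%). The 12 genes with a YY1 match had -0.20 with 2 called, and the 55 without had -0.15 with 6 called. The 8 genes with an NRF1 match had a median of -0.05 with 0 called, and the 59 without had -0.19 with 8 called. Of those with a match, Mrpl32 and Mrpl39 were dimmer than the median probe, where changes are compressed. Some genes without a match, among them Mrpl21 and Mrpl45, were also that dim. These comparisons are descriptions of letters in fixed windows, with no test, and a match is not a shown binding site.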

How the data were processed

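Total RNA from tibialis anterior was amplified and labelled with biotin for 1-colour Illumina arrays, per the labels' protocols. The deposited table holds log2 intensities, already processed by the authors. The log2 scale and the quantile normalization were read from these values, since after sorting, any array departed from another by no more than 0.00073. The sources used here name neither the array software nor the background correction, and detection calls were not used. Gene symbols came from the platform annotation, and the Entrez numbers of all 110 member probes matched RefSeq with 0 symbols changed.

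Groups of 4 were compared over all 25697 probes with limma 3.58.1 in R 4.3.3 (lmFit, eBayes with an intensity trend, two-sided, Benjamini-Hochberg). Exact permutation tests took the arrays as unpaired. No gene set test was run. The steps were tested on simulated data. The members, gene lists and tests were chosen with earlier results of these data known. Promoters are RefSeq sequences of build GRCm38.p6, and protein sequences are not used here.

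Named members are, per subunit, up to 8 called genes per direction with the smallest p, the genes with the brightest probes, and genes whose probes differ in call or sign. In other lists up to 3 called genes are named. Members outside this rule were chosen once their values were known. Replicates carry the numbers 1 to 4 in either group, with no meaning stated. Like-numbered arrays had correlated deviations from their group means (0.483, 0.264, 0.212 and 0.181, all above the 0.1 required to treat them as pairs). This pairing is read from the data and is doubtful, because p21 replicate 4 correlated best with control replicate 3 (0.448), and p21 replicate 2 with control replicate 4 (0.297). The alternatives were the replicate block, other variance estimates and array weights, a filter on dim probes, other normalizations, a background-subtracted scale, other thresholds, leaving out each array, subunit by structure, and averaging the probes of a gene.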

Additional observations from a re-analysis of the deposited data

Results flagged for a closer look

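In 3 called genes control replicate 1 lay far above the other controls. It read 11.28 for Mrpl18, where the other controls began at 11.05, 13.06 for Mrps21, where they began at 12.76, and 12.25 for Mrps28, where they began at 12.08. Its gap to the nearest control was 0.944, 0.830 and 0.956 of the range of the group, above Dixon's critical value for 4 samples. Of 30 groups of 4 arrays examined, 3 passed this limit, where chance gives about 1 in 20. Without control replicate 1 none of the 10 called probes kept adjusted p under 0.05 in limma, and all kept a change below 0. The same held without control replicate 2 and without p21 replicate 4. Over all probes 0.49%, 0.568% and 0.113% were lower in these fits, against 4.35% with all arrays.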

How the results depend on the processing

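The median change stayed below 0 under every alternative run. It lay between -0.20 and -0.12 in the large subunit and between -0.23 and -0.14 in the small subunit. All 10 called probes kept their direction in every fit. The counts of lower probes, 5 in each subunit, moved more. They were 10 in the large and 8 in the small subunit with the replicate number as a block, 8 and 12 without the intensity trend (18.2% of member probes, against 4.44% of all probes), and 11 and 15 in a fit of the probes brighter than the median (27.1% against 13.0%), where fewer probes are tested. Robust variances gave 8 in the large and 7 in the small subunit (together 13.6% of member probes, against 4.63% of all probes). A threshold of adjusted p 0.01 gave 0 in both (0.0934% of all probes), and 0.1 gave 12 and 14 (23.6% against 7.42%). Shares of all probes include many dim ones. With the main settings, the shares among brighter probes were 10.4% of member probes and 8.57% of all. Leaving out 1 array gave 0 to 9 in the large and 0 to 6 in the small subunit. The cause of these shifts was otherwise not tested. No member probe was called higher under any alternative run. Of the 10 called probes, 9 passed without the trend, Mrps18a being lost. Mrps24 passed without the trend and among brighter probes. The low end of the table limits dim probes. On a background-subtracted scale the medians were -0.20 and -0.21.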
